A study of Mus musculus with 11 samples.

Results

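The liver lobule is supplied by portal vein and hepatic artery branches in the portal tracts and drained by a central vein, and hepatocytes along that axis divide their work. Periportal hepatocytes carry much of the urea synthesis, gluconeogenesis and amino acid breakdown, whereas pericentral hepatocytes make glutamine and hold the cytochrome P450 enzymes that turn acetaminophen (APAP) into its toxic metabolite, so that APAP overdose kills hepatocytes around the central vein. The spots described here are the 2 ends of a periportal ranking at 48 h after APAP. Within each 48 h section, spots were ranked by their UMIs (unique molecular identifiers, each standing for 1 captured transcript) of Cyp2f2, Hal, Sds and Hsd17b13 per 10000 UMIs. The highest 20% were called periportal and the lowest 20% portal-poor, which gave 4000 spots, 2000 in each class, of 10006 passing spots at 48 h and 25136 in the series.

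Mouse liver was profiled with the Visium assay, in which barcoded spots under a tissue slice capture polyadenylated RNA, and a spot is wide enough to hold several cells. The labels give 3 uninjured sections at 0 h and, after APAP, 2 sections at 24 h, 2 at 36 h and 4 at 48 h (A to D). Per the study's methods the mice were adult C57BL/6JCrl animals, male unless a legend states otherwise, fasted before intraperitoneal APAP, and 1 mouse liver was used per time point, so p-values here cover only the spread between sections, and mouse and time cannot be told apart. The labels do not say whether the 0 h mice were fasted or given vehicle. Each 48 h section gave 596 to 1386 class spots, and the UMIs summed per section and class ranged from 8238060 to 13745155.

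The values that chose the classes are given as a description. Spots just inside the periportal class held 23.5 to 29.2 UMIs of the 4 genes per 10000 in the 4 sections, and the nearest spots outside it held the same to 3 digits. The corresponding lower bound lay at 6.40 to 9.80 per 10000. Between 309 and 580 spots of a section lay within 10% of the upper bound and 131 to 294 within 10% of the lower bound. Because the score is continuous, the classes are ranges of a score and not types of spot. Cyp2f2, for instance, the most abundant of the 4 at 0 h, was selected for and stood at 740 to 1214 CPM (UMIs per 1000000 UMIs of the class sum) in periportal spots and at 119 to 268 in portal-poor spots. Every other gene enters the total by which the score was divided, and a second ranking over hepatocyte transcripts alone, described below, used a different divisor.

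**Figure D1:**
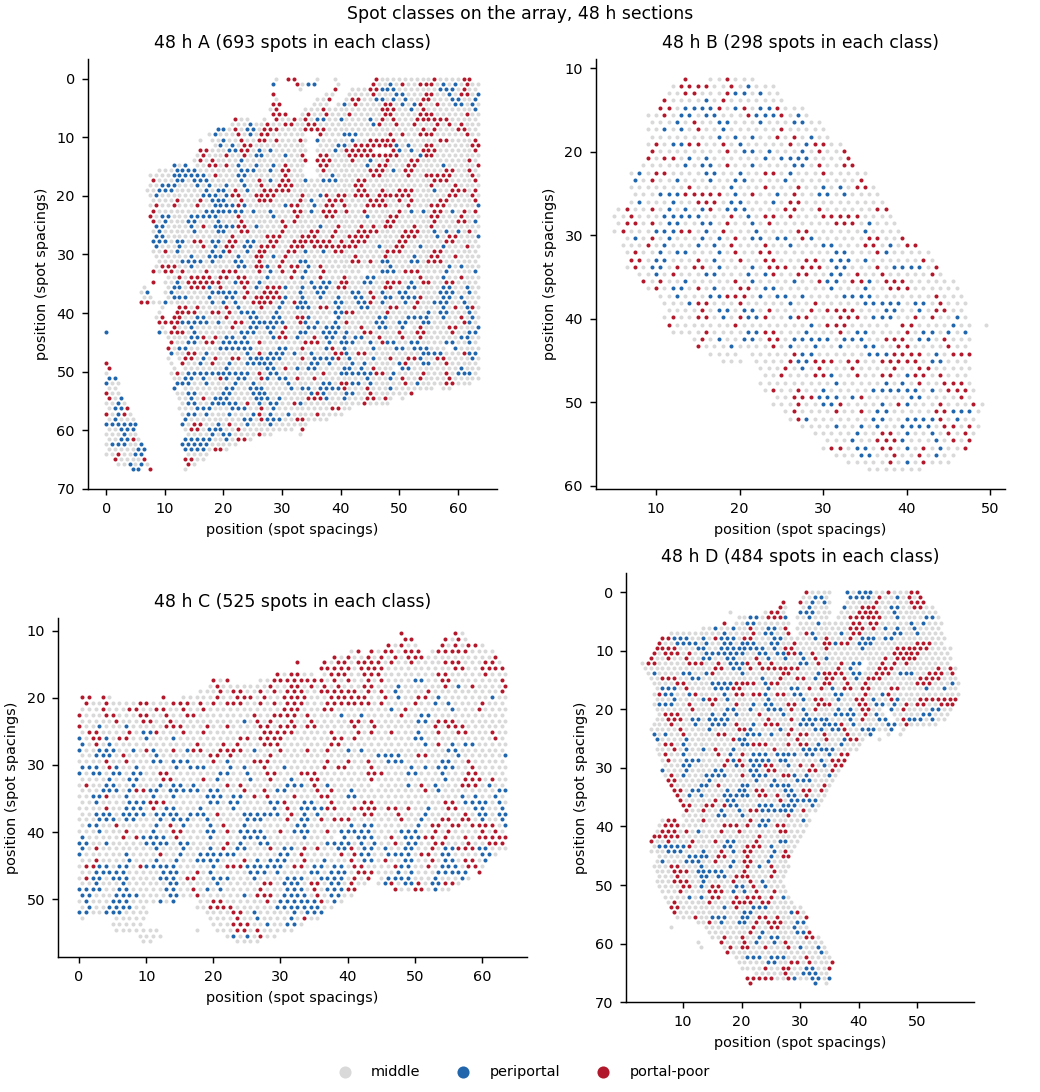
Positions of periportal (blue), portal-poor (red) and remaining (grey) spots on the capture array of the 48 h sections A to D, in units of the spacing between spots. Both classes recur across each section in small clusters, with 298 to 693 spots in each class.

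Spots of a class tended to lie side by side at 48 h. Of the neighbour links of periportal spots, 37.2 to 49.6% led to another periportal spot and 2.73 to 4.65% to a portal-poor spot. Links from portal-poor spots led to their own class in 37.2 to 42.6% of cases. Portal-poor spots held more detected genes, with section medians of 4801 to 5758 against 3713 to 4621 in periportal spots, at median depths of 20238 to 28025 and 17032 to 26458 UMIs.

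Portal-poor at 48 h did not mean pericentral hepatocytes alone. Summed UMIs of 12 lesion markers (collagen, macrophage and neutrophil genes such as Col1a1, Lyz2, Gpnmb and S100a8) had section medians of 34.3 to 81.5 per 10000 in portal-poor spots and 6.65 to 12.7 in periportal spots. Between 76.8 and 88.6% of portal-poor spots were among the 30% of spots richest in these markers, against 0.381 to 2.60% of periportal spots. At 0 h the corresponding shares were 18.3 to 21.7% and 31.4 to 34.1%. A spot with fewer hepatocytes and a spot with less of a transcript per hepatocyte cannot be told apart in these sums, so most groups below are also given from a ranking made after the 30% richest spots had been left out of every section. Its classes were again 20%, now of the spots left, and so were smaller than the first ones. That ranking kept 69.8 to 70.1% of the periportal spots at 48 h, about the most that classes of this size could keep. It kept 11.4 to 23.2% of the portal-poor spots, and the lesion markers themselves were used to make it.

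Across the transcriptome the 2 classes differed widely. Of 12817 genes tested with edgeR's quasi-likelihood test on the section sums, 8495 (66.3%) passed an adjusted p of 0.05, with 4188 (32.7%) higher in periportal and 4307 (33.6%) higher in portal-poor spots. At least a 2-fold difference was reached by 1017 and 1816 of these. For 6025 genes (47.0%) the 4 periportal and 4 portal-poor values did not overlap. Changes are relative to the median gene: TMM scaling, a trimmed mean that centres the typical gene, put the median log2 fold change at -0.01, and scaling by total UMIs put it at -0.49, with 1629 genes higher and 8377 lower. Under both scalings 5936 genes passed with the same sign and 588 with opposite signs, so folds of small size depend on the scaling. Without lesion-marker spots 3585 of 11945 genes (30%) passed, 1835 (15.4%) higher and 1750 (14.7%) lower in periportal spots. Of the 11936 genes tested in both rankings, 3316 passed in both with the same sign and 64 with opposite signs. These shares are the background for the counts that follow, in which CPM refers to the TMM-scaled sum and fold changes are log2 of periportal over portal-poor with their SE.

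Genes of the urea cycle, amino acid breakdown and gluconeogenesis were higher in periportal spots. All 7 urea cycle genes tested passed, with a median log2 fold change of 1.63, as did all 16 amino acid breakdown genes (1.62) and all 5 gluconeogenesis genes (1.65), beside a background of 32.7%. Cps1, which commits ammonia to the urea cycle (chromosome 1, 67123026 to 67231259, plus strand, mm10), stood at 3481, 4049, 3652 and 2547 CPM in periportal spots of sections A to D and at 1252, 1182, 909 and 881 CPM in portal-poor spots. The lowest periportal value, in section D, was above all 4 portal-poor values, and the log2 fold change was 1.70 ± 0.10 (adjusted p = 1.1e-09). Arg1 (1.81 ± 0.09), which releases urea, and Ass1 (1.64 ± 0.09), which joins citrulline and aspartate, differed by similar amounts, and neither overlapped between classes. Without lesion-marker spots all 7 urea cycle genes and all 5 gluconeogenesis genes still passed, with medians of 0.61 and 0.75, and 15 of 16 amino acid genes did (0.81). The fold of Cps1 was then 0.50 ± 0.09 and that of Arg1 0.86 ± 0.07.

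Among the 12 genes with the largest excess in periportal spots, enzymes prevailed. Aldh1b1, a mitochondrial aldehyde dehydrogenase (chromosome 4, 45799022 to 45804604, plus strand), led with 404, 404, 417 and 303 CPM in periportal and 46.0, 44.9, 40.1 and 37.5 CPM in portal-poor spots of A to D, a log2 fold change of 3.17 ± 0.08 (adjusted p = 1.3e-12). Its 4 sections differed little in the portal-poor class, and the classes lay far apart. Pck1, the gate enzyme of gluconeogenesis (chromosome 2, 173153048 to 173159273, plus strand), varied more between sections, at 1844, 621, 1499 and 2260.2 CPM against 217, 85.3, 144 and 368 CPM. Section D was highest and B lowest in both classes, and the fold was 2.99 ± 0.11.

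The steroid dehydrogenase Hsd17b6 (2.89 ± 0.09) and Etnppl (2.82 ± 0.09), which breaks down phosphoethanolamine, followed, both without overlap between classes. Next came amino acid genes, namely the cystine and dibasic amino acid transporter subunit Slc3a1 (2.51 ± 0.08), the asparaginase Aspg (2.21 ± 0.09), the iminopropanoate deaminase Rida (2.18 ± 0.09), the glycine decarboxylase Gldc (2.10 ± 0.07) and the liver glutaminase Gls2 (2.09 ± 0.09). The carboxylesterase Ces3b (2.09 ± 0.10), the predicted gene Gm48633 (2.09 ± 0.11) and G6pc (2.18 ± 0.18), which releases free glucose, completed the set. G6pc overlapped between classes, ranging from 29.7 CPM in A to 368 CPM in D among periportal spots, although it was higher in periportal spots in 4 of 4 sections. All 12 also passed without lesion-marker spots, where Aldh1b1 kept 2.67 ± 0.08 and Hsd17b6 2.08 ± 0.09, while Gm48633 stood at 0.76 ± 0.09.

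**Figure D2:**
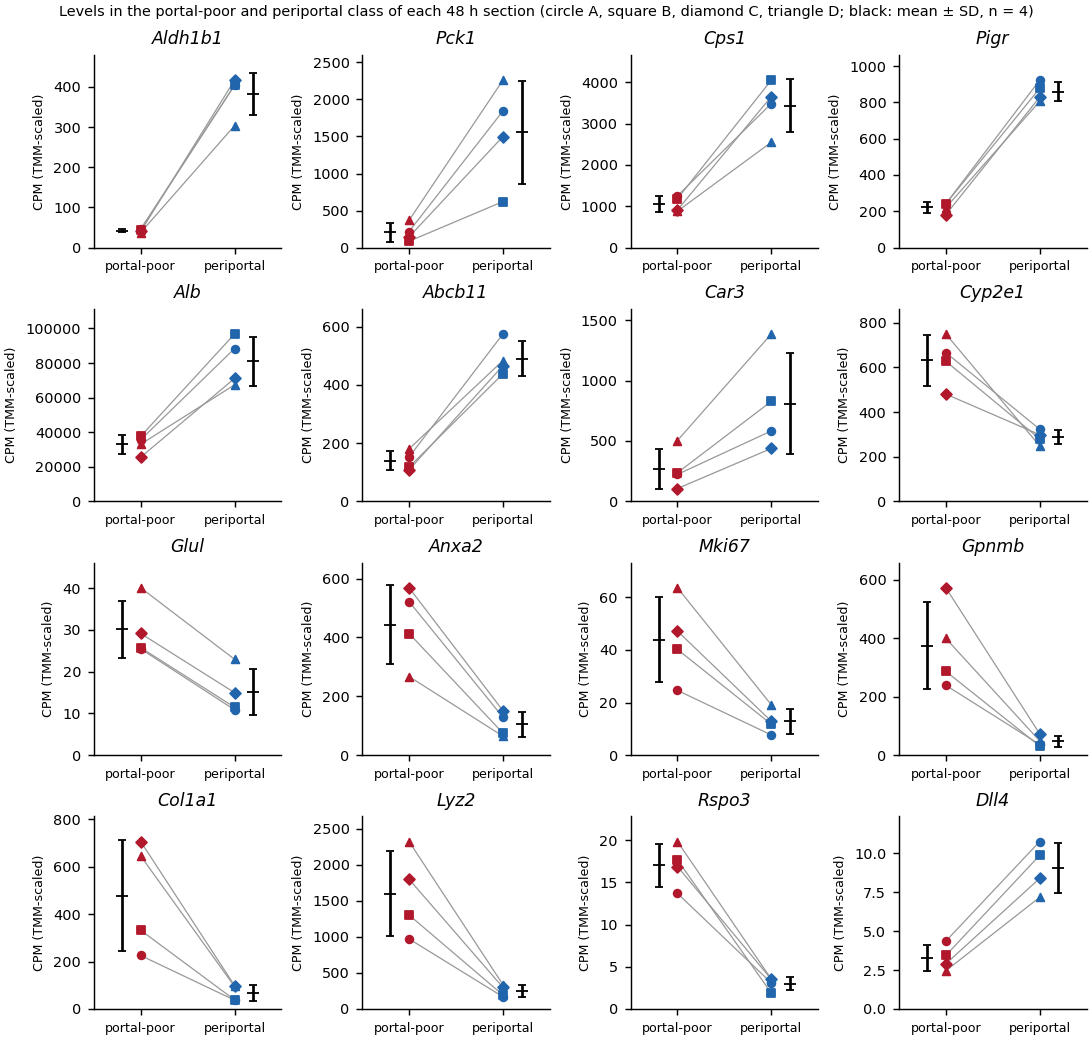
Levels in CPM (TMM-scaled, linear axes from 0) of 16 genes in the portal-poor (red) and periportal (blue) class of each 48 h section; lines join the 2 classes of a section and black bars give the mean ± SD over 4 sections. Aldh1b1, Cps1 and Pigr lie higher in periportal spots of every section, and Cyp2e1, Anxa2, Mki67, Gpnmb and Col1a1 lie lower.

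The label periportal was set beside lists that did not enter the ranking. Over all spots hepatocyte genes of many kinds lay higher in this class, 16 of 23 on the study's central list among them. Counts of hepatocyte genes therefore cannot separate periportal spots from spots rich in hepatocytes. All 8 genes of the study's portal list passed in the periportal direction (median 1.66), a list drawn on these same sections and hence not independent evidence. Pigr, which carries immunoglobulin A into bile, had 858 ± 51.9 CPM in periportal and 221 ± 28.3 CPM in portal-poor spots (SD, n = 4). Of 10 textbook periportal genes 8 passed in this direction, Apoc2 in the other, and Ctsc did not pass. All 5 tested genes of portal and arterial endothelium were higher, among them the Notch ligand Dll4 (1.46 ± 0.13) and Adgrg6 (1.59 ± 0.27). Both were low, with means of 9.05 and 2.15 CPM in periportal and 3.29 and 0.727 CPM in portal-poor spots. Sox17 (0.56 ± 0.17) and Ltbp4 (0.52 ± 0.08) differed by little more than total-count scaling moved the median gene (-0.01 to -0.49). Folds of that size depend on the scaling. Under TMM scaling the summed level of the list ranged from 46.9 to 61.8 CPM in periportal and from 26.5 to 43.1 CPM in portal-poor spots. Without lesion-marker spots Pigr (0.90 ± 0.07), Dll4 (1.03 ± 0.16) and Adgrg6 (2.58 ± 0.48) still passed.

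Other portal tract cells followed the label less clearly. Of 6 tested cholangiocyte genes 3 passed upwards, Epcam (1.79 ± 0.53), Sox9 (0.89 ± 0.15) and Cldn7, whereas the bile duct keratin Krt19 was at 2.99, 3.49, 3.91 and 2.01 CPM in periportal and 4.54, 0.465, 3.87 and 0.911 CPM in portal-poor spots of A to D and did not pass (0.33 ± 0.42, adjusted p = 0.53). The classes overlapped for Krt19, and Krt7 and Muc1 did not pass. Portal tract mesenchyme went against the label: 8 of 9 tested genes were higher in portal-poor spots, including the matrix genes Fbln2 (-2.03 ± 0.13) and Lum (-1.75 ± 0.10), and Entpd2 alone was higher in periportal spots. Without lesion-marker spots 1 of 7 such genes passed in each direction and Fbln2 stood at -0.33 ± 0.17 (adjusted p = 0.15), while Lum still passed at -0.86 ± 0.09.

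Secretory and biliary genes were higher in periportal spots. All 18 plasma protein genes (median 1.30) and all 11 bile acid genes (1.28) passed in the periportal direction. Alb, the albumin gene, had 80928 ± 13993 CPM in periportal and 32973 ± 5290.0 CPM in portal-poor spots, a fold of 1.29 ± 0.12 (adjusted p = 1.1e-07), and the fibrinogen chain Fga (1.52 ± 0.10) and the thyroxine carrier Ttr (1.04 ± 0.10) followed. The bile salt export pump Abcb11 stood at 575, 438, 466 and 483 CPM against 152, 118, 108 and 180.2 CPM. None of its values overlapped, and the uptake carrier Slc10a1 (1.62 ± 0.08) and the bile acid sensor target Nr0b2 (1.85 ± 0.14) had folds of similar size. Of 14 acute phase genes 9 were higher, among them Hp (1.26 ± 0.12) and Saa4 (1.88 ± 0.11), and Saa2, Saa3, Orm2, Mt1 and Mt2 did not pass.

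In the ranking without lesion-marker spots these differences were smaller. For the plasma proteins 13 of 18 passed (median 0.42), Alb with 0.39 ± 0.09, and Ttr did not (0.21 ± 0.08, adjusted p = 0.064). Bile acid genes then split, with 6 higher and 2 lower of 11 (median 0.22), although Abcb11 (0.66 ± 0.08) still passed, and acute phase genes with 6 higher and 3 lower of 14. Of 15 fatty acid oxidation genes 14 were higher over all spots (median 0.79), such as the peroxisomal enzyme Ehhadh (1.38 ± 0.09), and 9 of 15 were higher and 1 lower without lesion-marker spots (median 0.21). Fabp1, the liver fatty acid binding protein, differed by 1.27 ± 0.09, yet its sections overlapped, since section C had 1883 CPM in periportal and section D 3502 CPM in portal-poor spots.

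Pericentral hepatocyte genes gave the mixed picture of this comparison. Of the 23 genes on the study's central list, which was also drawn on these sections, 16 were higher and 3 lower in periportal spots (median 0.76), the 3 being Cyp2e1, Cyp2c29 and Lect2. Car3, a muscle and liver carbonic anhydrase on that list, had a fold of 1.67 ± 0.10, and the glutathione transferase Mgst1 one of 1.32 ± 0.11. Cyp2e1, the main APAP-oxidising enzyme (chromosome 7, 140763739 to 140774987, plus strand), lay at 323, 280.2, 299 and 248 CPM in periportal and 667, 628, 481 and 750.0 CPM in portal-poor spots of A to D. Every portal-poor value was above every periportal one, with a fold of -1.12 ± 0.12 (adjusted p = 2.9e-06). Portal-poor spots were not the richest in Cyp2e1, however. Over ranges of 20% from lowest to highest score its means were 602, 841, 790, 447 and 275 CPM.

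Of the Wnt targets that mark the innermost pericentral cells, those that passed had the sign of Cyp2e1 except for Notum. Notum peaked in the middle of the ranking. Its means over ranges of 20% from lowest to highest score were 20.3, 31.3, 39.7, 34.6 and 26.6 CPM. Glutamine synthetase, Glul, stood at 10.9, 11.5, 15.0 and 23.0 CPM against 25.5, 25.8, 29.2 and 40.1 CPM (-1.01 ± 0.09), and ornithine aminotransferase, Oat, at 21.2 ± 3.79 against 60.0 ± 6.78 CPM (-1.50 ± 0.10). In all 6 of 12 such genes were higher in portal-poor spots, Lgr5, an R-spondin receptor at levels of at most 3.07 CPM, among them (-1.75 ± 0.27), and 1 was higher in periportal spots. Drug metabolism genes divided 5 higher to 4 lower of 12, with a median of 0.15 that turned to -0.34 under total-count scaling and to -0.35 when spots were ranked per UMI of 10 hepatocyte plasma protein genes.

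Leaving out lesion-marker spots turned the central list over. Of the same 23 genes 1 was then higher and 13 lower in periportal spots (median -0.33), and of 12 drug metabolism genes 2 were higher and 9 lower (median -1.11). Cyp2e1 changed from -1.12 ± 0.12 to -2.27 ± 0.09, Car3 no longer passed (0.22 ± 0.09, adjusted p = 0.078), and the P450 gene Cyp3a11 went from 0.95 ± 0.16 to -0.37 ± 0.11. Cyp2a5, a coumarin-oxidising P450 with close paralogues among which reads may be split, differed by -2.0 ± 0.27 over all spots and by -2.22 ± 0.11 in this ranking. Ranking per hepatocyte UMI, which keeps lesion spots but divides by hepatocyte transcripts, gave 10 higher and 5 lower central genes (median 0.35).

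**Figure D3:**
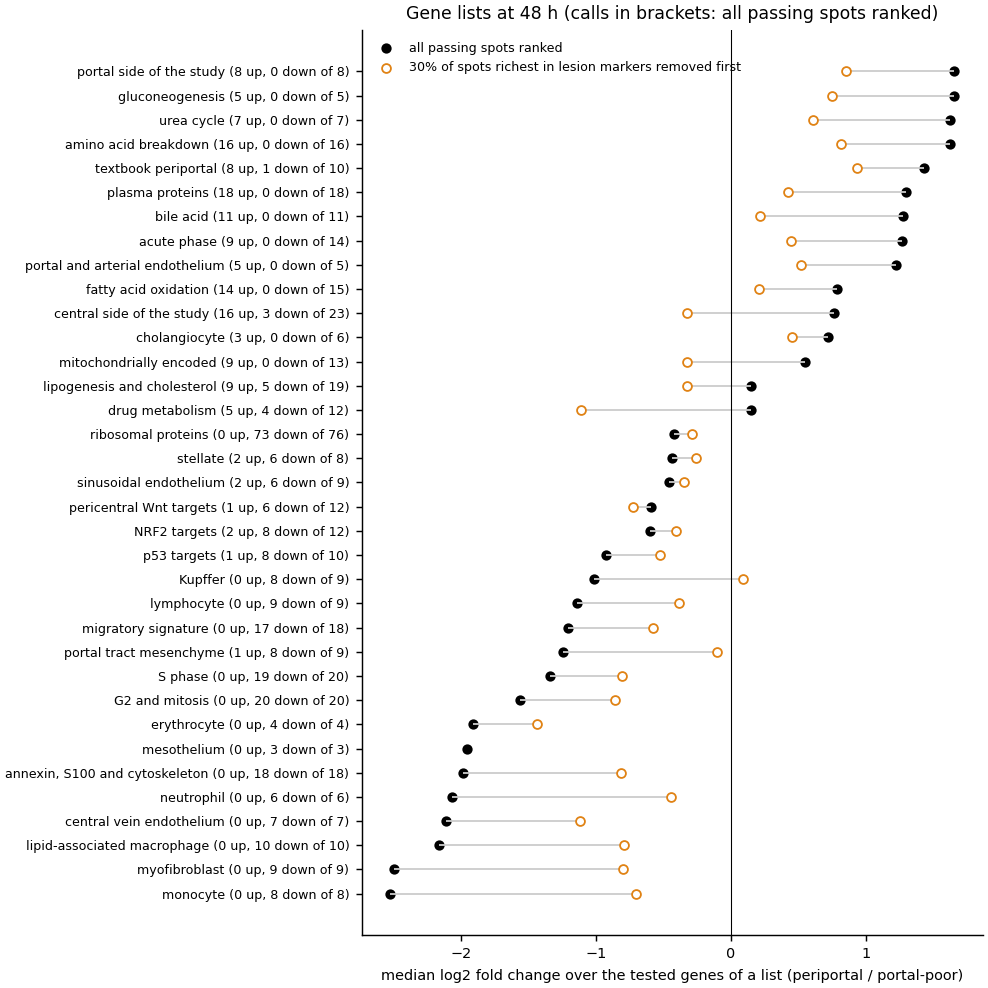
Median log2 fold change (periportal over portal-poor) over the tested genes of 35 gene lists, ranked over all passing spots (black) or after the 30% of spots richest in lesion markers were left out (open, orange); 3 mesothelial genes were not tested in the latter. The study's central list moves from 0.76 to -0.33 and the Kupffer list from -1.02 to 0.09, while the portal list moves from 1.66 to 0.85.

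Portal-poor spots carried the RNA of proliferating cells. All 20 G2 and mitosis genes (median -1.56) and 19 of 20 S phase genes (-1.34) were higher there, Ung being the one that did not pass, beside a background of 33.6%. Mki67, a nuclear protein of cycling cells (chromosome 7, 135689784 to 135716361, minus strand), was at 7.67, 11.8, 12.9 and 19.1 CPM in periportal and 24.6, 40.2, 47.1 and 63.6 CPM in portal-poor spots. Section A was lowest and D highest in both classes, the classes did not overlap, and the fold was -1.77 ± 0.08 (adjusted p = 8.3e-11). The mitotic kinase gene Cdk1 (-1.53 ± 0.11) and the cytokinesis gene Anln (-2.0 ± 0.17) were also higher there, as were the replication genes Pcna (-1.37 ± 0.07), Mcm6 (-1.31 ± 0.09) and Uhrf1 (-1.67 ± 0.10). Without lesion-marker spots 19 of 20 genes of each phase list were still higher in the portal-poor class, with medians of -0.86 and -0.81, and Mki67 differed by -0.86 ± 0.13. Which cells carried these transcripts was not tested, since a spot mixes hepatocytes with the macrophages and mesenchyme described below.

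The migratory hepatocyte signature and its cytoskeletal relatives were also higher in portal-poor spots. Of 18 tested genes from the study's human signature, 17 were higher there (median -1.20) and Prkca did not pass. Klhl29, Dtna and Hkdc1 were too low to be tested. Anxa2, an annexin that links membranes to actin (chromosome 9, 69453620 to 69491795, plus strand), lay at 129, 74.9, 151 and 64.5 CPM in periportal and 522, 413, 569 and 267 CPM in portal-poor spots. Section D was lowest in both classes, the classes did not overlap, and the fold was -2.10 ± 0.09 (adjusted p = 5.0e-11). The vitronectin receptor chain Itgav differed less (-1.04 ± 0.08). All 18 annexin, S100 and cytoskeleton genes were higher in portal-poor spots (median -1.99), among them the cornified envelope gene Sprr1a (-2.47 ± 0.10), the actin-binding Tmsb4x (-1.94 ± 0.08) and the hepatocyte keratin Krt18 (-1.03 ± 0.17). Krt18 and Sprr1a overlapped between classes, with section D the lowest in both, Sprr1a at 28.1 CPM in its portal-poor spots against 144 to 316 CPM in the other sections. Without lesion-marker spots all 18 cytoskeletal genes but 7 of 14 tested signature genes passed in the same direction, Anxa2 with -1.30 ± 0.07 and Sprr1a with -1.59 ± 0.08. The study also found Anxa2 transcripts in leukocytes, mesenchyme and endothelia after APAP in mice. Which cells carried the transcripts of these 2 lists here was not tested.

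Stress programmes leaned the same way. Of 10 p53 target genes 8 were higher in portal-poor spots (median -0.92), including Phlda3 (-2.10 ± 0.11) and the apoptosis effector Bax (-1.25 ± 0.08), and Btg2 was higher in periportal spots. Of 12 NRF2 targets 8 were higher in portal-poor spots, led by the haem oxygenase Hmox1 (-2.25 ± 0.10), whereas Osgin1 and the glutathione synthesis subunit Gclm (0.77 ± 0.07) were higher in periportal spots. Hmox1, which macrophages also express, did not pass without lesion-marker spots (-0.41 ± 0.18, adjusted p = 0.14), whereas Phlda3 (-1.18 ± 0.12) and Bax (-0.66 ± 0.06) did. In that ranking Gclm still passed in the periportal direction (0.27 ± 0.06). Ribosomal protein genes were higher in portal-poor spots in 73 of 76 cases, by a small margin under TMM scaling (median -0.42), Rps19 with -0.86 ± 0.08. Without lesion-marker spots Rps19 still passed (-0.55 ± 0.08).

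Mitochondrially encoded transcripts were higher in periportal spots for 9 of 13 genes (median 0.55), for instance mt-Co1 (0.79 ± 0.12), mt-Co3 (0.75 ± 0.11) and mt-Cytb (1.01 ± 0.11). Section medians of the mitochondrial share were 1.95 to 2.75% in periportal and 1.39 to 1.95% in portal-poor spots. None of the genes was higher without lesion-marker spots, where 3 of 12 were lower (median -0.33) and mt-Co1 stood at -0.14 ± 0.11 (adjusted p = 0.34). Of 19 lipogenesis and cholesterol genes 9 were higher and 5 lower in periportal spots, with a median of 0.15 that became -0.34 under total-count scaling. The fatty acid synthase Fasn and the desaturase Scd1 had folds of 0.64 ± 0.08 and 0.70 ± 0.10, against -0.14 ± 0.08 (adjusted p = 0.2) and -0.28 ± 0.09 (adjusted p = 0.023) without lesion-marker spots.

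Among the 12 genes with the largest excess in portal-poor spots, myeloid genes and a collagen prevailed. Gpnmb, a glycoprotein of lipid-laden macrophages (chromosome 6, 49036546 to 49070929, plus strand), stood at 36.6, 31.1, 73.3 and 48.8 CPM in periportal and 239, 287, 573 and 399.9 CPM in portal-poor spots (-2.97 ± 0.09, adjusted p = 3.2e-12). Col1a1, the fibrillar collagen chain (chromosome 11, 94936224 to 94953042, plus strand), stood at 37.1, 38.3, 98.6 and 94.7 and 225, 332, 706 and 645 CPM (-2.83 ± 0.09). Both were highest in section C, and neither overlapped between classes.

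The remaining 10 had folds from -3.04 to -2.70. They comprised the membrane protein Basp1 (-3.04 ± 0.11), the monocyte chemokines Ccl7 (-3.02 ± 0.10) and Ccl2 (-2.70 ± 0.10), the chitinase-like protein Chil3 (-2.97 ± 0.08), the calcium-binding S100a4 (-2.91 ± 0.08), the lectin Clec4d (-2.85 ± 0.16), the survival gene Bcl2a1b (-2.83 ± 0.10), whose near-identical copies can share reads, the elastase Mmp12 (-2.79 ± 0.09), the platelet and macrophage chemokine Pf4 (-2.76 ± 0.08) and the metalloprotease Adam8 (-2.73 ± 0.10). None overlapped between classes. All 12 passed in the same direction without lesion-marker spots, where Mmp12 (-1.53 ± 0.12) and Basp1 (-1.28 ± 0.16) had the largest folds and Adam8 (-0.62 ± 0.12) the smallest.

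The other cell types a spot can hold moved with the classes as whole lists. All 8 monocyte genes (median -2.53), all 9 myofibroblast genes (-2.49), all 10 lipid-associated macrophage genes (-2.16) and all 6 tested neutrophil genes (-2.07) were higher in portal-poor spots. The summed monocyte list ranged from 320 to 525 CPM in periportal and from 1568 to 2943 CPM in portal-poor spots, and Lyz2, the lysozyme of myeloid cells, from 169 to 338 and from 970.4 to 2320.4 CPM. Cd68 (-2.39 ± 0.08), Lgals3 (-2.51 ± 0.08) and S100a9 (-1.98 ± 0.07) had folds of the same order. Erythrocyte genes also lay higher in portal-poor spots in 4 of 4 cases, Hba-a1 with -2.0 ± 0.12, as did all 9 tested lymphocyte genes, Ighm with -1.90 ± 0.18 and Ccl5 with -1.75 ± 0.32, and all 3 tested mesothelial genes. Without lesion-marker spots 6 of 8 monocyte, 9 of 9 myofibroblast and 8 of 10 lipid-associated macrophage genes were still higher in the portal-poor class, with medians of -0.70, -0.80 and -0.79, and 1 macrophage gene, Spp1, was higher in the periportal class; several of these genes also served to remove the spots. In that ranking Ccl5 still passed (-1.65 ± 0.14) and Ighm did not (-0.62 ± 0.24, adjusted p = 0.058), and 1 of 4 tested lymphocyte genes was higher in the portal-poor class. Of 8 stellate cell genes 6 were higher in portal-poor and 2, Rgs5 and Colec11, in periportal spots (median -0.44). The part these cells had in the fold changes of genes they share with hepatocytes was not tested.

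Of 9 genes of Kupffer cells, the resident macrophages, 8 were higher in portal-poor spots over all spots, among them Cd5l (-1.11 ± 0.07) and the complement gene C1qb (-1.41 ± 0.07), and Clec4f did not pass. Without lesion-marker spots none was higher there and 2 were higher in periportal spots (median 0.09), with Cd5l at 0.00 ± 0.07 (adjusted p = 0.99) and C1qb at -0.11 ± 0.06 (adjusted p = 0.22). Spp1, osteopontin, which macrophages and bile duct cells both make, turned from -0.98 ± 0.10 to 0.36 ± 0.11 (adjusted p = 0.024).

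Central vein endothelial genes were higher in portal-poor spots in 7 of 7 cases (median -2.11). Rspo3, a Wnt amplifier of that endothelium, lay at 3.09, 1.89, 3.53 and 3.54 CPM in periportal and 13.7, 17.7, 16.9 and 19.8 CPM in portal-poor spots (-2.45 ± 0.14), and the Wnt ligands Wnt2 (-2.21 ± 0.18) and Wnt9b (-2.50 ± 0.25) and the thrombin receptor Thbd (-2.06 ± 0.10) had the same sign. Without lesion-marker spots 5 of 6 passed, Rspo3 with -1.42 ± 0.19 and Wnt2 with -1.57 ± 0.23, and the sinusoidal genes Stab2 and Lyve1 had -0.55 ± 0.07 and -1.25 ± 0.15 beside -0.52 ± 0.07 and -1.25 ± 0.13 over all spots. Of 9 sinusoidal genes 6 were higher in portal-poor spots over all spots and 7 without lesion-marker spots.

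Distance from portal-poor spots on the grid showed how sharply these levels fell over the first 2 steps. In CPM without TMM scaling, Col1a1 went from 264, 402, 847 and 740 in portal-poor spots of A to D to 82.7, 107, 304 and 236 in spots 1 step away, and to 39.0, 44.6, 153 and 106 at 2 steps. Mki67 dropped from 28.7 to 72.9 over the sections in portal-poor spots to 11.5 to 34.9 at 1 step and 7.38 to 20.6 at 2 steps. Cyp2e1 behaved differently, with 745, 786, 669 and 663 CPM at 1 step beside 779, 761, 577 and 860 in portal-poor spots and 408, 387, 437 and 365 at 2 steps. In sections B and C it was higher at 1 step than in portal-poor spots, and in A and D lower. Cps1 had reached 1862 to 2975 CPM at 1 step, from 1010 to 1463 in portal-poor spots, and 2078 to 3262 at 2 steps. Further out the levels did not keep falling. At 4 or more steps Col1a1 was at 63.8, 153 and 314 CPM in A, C and D (46, 120 and 45 spots), where B had 6 spots. The steps were counted from a class chosen on these spots, so the profile is a description.

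**Figure D4:**
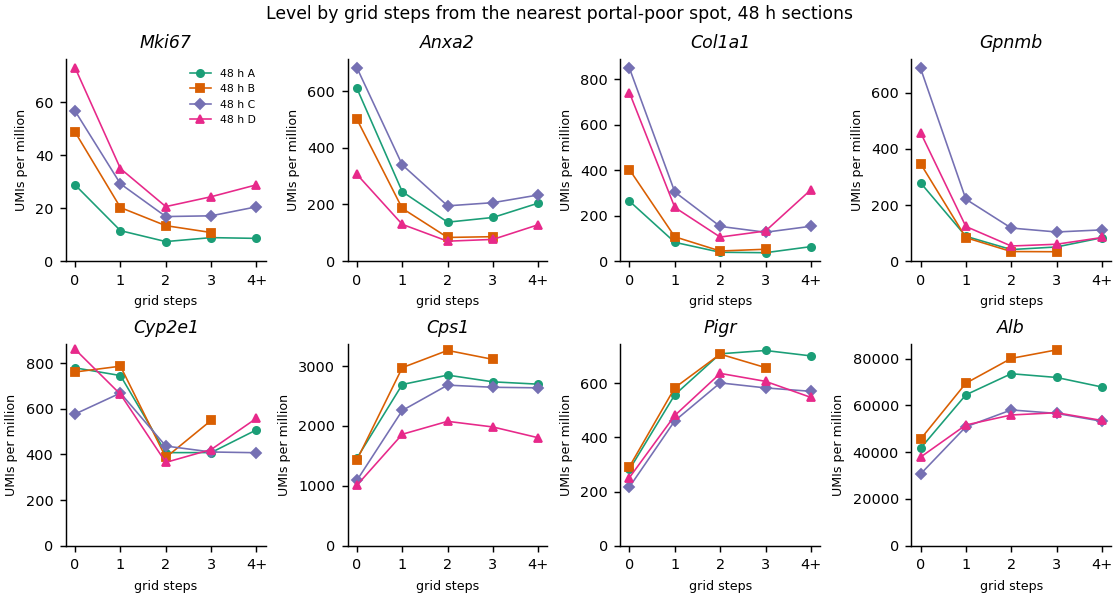
Level in CPM (unscaled, linear axes from 0) of 8 genes against grid steps from the nearest portal-poor spot, in each 48 h section; the last point pools 4 or more steps, and points with fewer than 20 spots are left out. Mki67, Anxa2, Col1a1 and Gpnmb fall within 2 steps in all 4 sections, and Cyp2e1 falls between 1 and 2 steps.

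The class difference at 48 h was then compared with that of the same ranking at the other times, in 1 fit of 13554 genes over all 11 sections. The ranking genes weighed differently over time. In periportal spots Cyp2f2 led at 0 h (1735 to 1934 CPM), Hsd17b13 at 24 h (1020 and 1289 CPM) and Sds in section B at 36 h (2490 CPM). At 48 h Hsd17b13 led in A and C and Cyp2f2 in B and D. What this did to the comparisons between times was not tested. The class difference at 48 h differed from that at 0 h for 6332 genes (46.7%), 3308 (24.4%) with a more positive and 3024 (22.3%) with a more negative log2 fold change at 48 h. Against 24 h 3292 genes differed (24.3%), and against 36 h 979 (7.22%), 654 of them (4.83%) upwards and 325 (2.4%) downwards. The 3 comparisons share the 48 h sections. Without lesion-marker spots the numbers were 1875 (14.8%) against 0 h, of which 1109 (8.73%) were upwards and 766 (6.03%) downwards, 675 against 24 h and 11 against 36 h, and for 24 h and 36 h they also depended on single sections, with 1199 genes without section A at 24 h and 233 without section A at 36 h.

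All 23 genes of the central list had a more positive class difference at 48 h than at 0 h. Their median class difference was -1.14, -0.58, 0.24 and 0.74 at 0, 24, 36 and 48 h in turn. Of 12 drug metabolism genes 11 differed upwards, with medians of -1.83, -1.26, -0.40 and 0.12, and of 12 Wnt targets 9 did, with -2.39, -0.46, -0.39 and -0.62. Without lesion-marker spots 17 of 23 central genes, 6 of 12 drug metabolism genes and 8 of 12 Wnt targets still differed upwards and none downwards, beside a background of 8.73%. Cyp2e1 had class differences of -2.33, -1.94, -1.19 and -1.15 at 0, 24, 36 and 48 h, and Glul -2.41, -0.56, -0.14 and -1.04. Both kept their sign, and both differed between 48 h and 0 h, by 1.19 ± 0.22 (adjusted p = 9.3e-04) and 1.37 ± 0.13 (adjusted p = 1.1e-08).

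Several hepatocyte lists had a more positive class difference at 48 h than at 0 h, whereas the textbook periportal list did not move as a whole, with medians of 1.41 at both times and 5 genes differing upwards and 4 downwards of 10. The urea cycle median went from 0.56 at 0 h to 0.70, 0.98 and 1.60, and all 7 genes differed from 0 h. Bile acid genes crossed from -0.31 to 1.25 (11 of 11), plasma proteins went from 0.28 to 1.27 (17 of 18) and amino acid genes from 0.32 to 1.60 (16 of 16). For the portal list 7 of 8 genes differed upwards, from 1.12 to 1.63. Without lesion-marker spots 8 of 11 bile acid genes and 9 of 16 amino acid genes still differed upwards, but 1 of 7 urea cycle genes and 3 of 18 plasma protein genes did, and of the portal list 4 of 8 genes differed downwards and 0 upwards. Aldh1b1 did not pass between 48 h and 0 h, with class differences of 3.15 and 2.87.

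Several lists that were higher in portal-poor spots at 48 h had medians near 0 at 0 h. The monocyte median went from 0.28 through -1.24 and -1.91 to -2.55 and the myofibroblast median from 0.25 through -0.85 and -1.77 to -2.52. All 8 and all 9 genes differed between 48 h and 0 h. The cytoskeletal list went from 0.17 to -2.01 (17 of 18 genes), the migratory signature from 0.26 to -1.20 (12 of 19 tested there), S phase from 0.06 to -1.36 (17 of 20) and G2 and mitosis from -0.22 to -1.59 (11 of 20). Without lesion-marker spots these counts were 3 of 8 monocyte, 4 of 9 myofibroblast, 13 of 18 cytoskeletal, 3 of 18 signature, 12 of 20 S phase and 1 of 20 G2 and mitosis genes. Anxa2 had already reached -1.86 at 24 h, from -0.41 at 0 h. Mki67 stood at -0.62, 0.27, -0.24 and -1.79 over the 4 times, and its 48 h value differed from that at 36 h by -1.55 ± 0.31 (adjusted p = 0.0031). In CPM without TMM scaling, Mki67 in portal-poor spots was at 0.717 to 0.960 at 0 h and at 2.18 and 0 at 24 h. Its class differences at those times rested on few UMIs. Central vein endothelium had medians of -1.96, -1.94, -1.43 and -2.13 over the 4 times, and 1 of 7 genes differed between 48 h and 0 h.

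**Figure D5:**
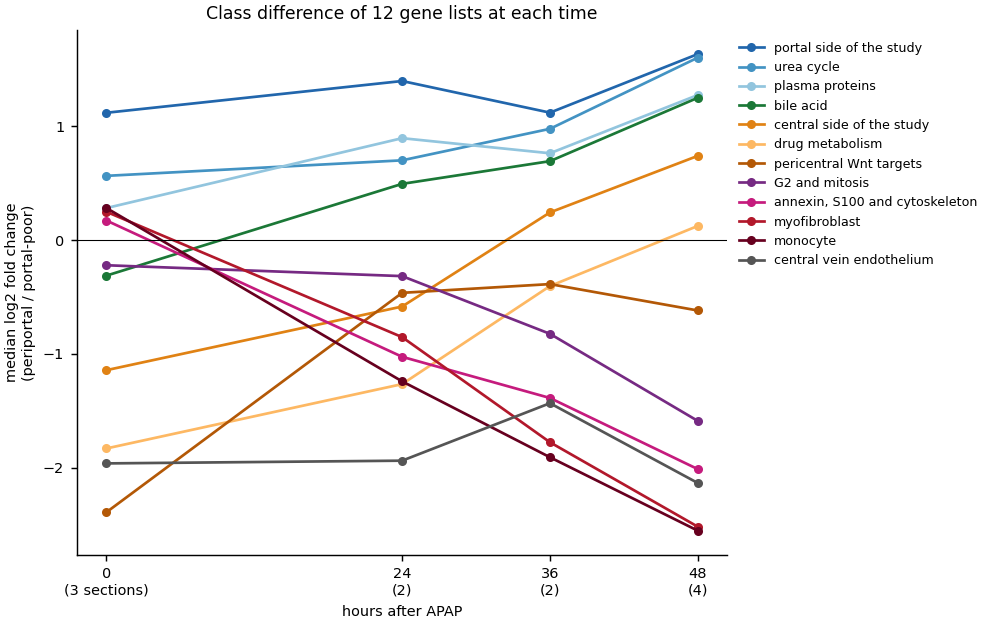
Median class difference (log2 periportal over portal-poor, from the fit of all 11 sections) of 12 gene lists at 0, 24, 36 and 48 h after APAP, with the number of sections below each time. The central list rises from -1.14 to 0.74, and the monocyte list falls from 0.28 to -2.55.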

How the data were processed

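The deposited files hold UMI counts per gene and spot, which the authors made without pooling sections, with 31053 genes; the submitters' processing notes name Space Ranger 1.0.0, Seurat 4.1.1 and the mm10 build. Tissue spots entered the ranking when they had 800 or more detected genes and a mitochondrial share no higher than 20%. UMIs were summed per section and class (8 sums at 48 h, 22 over all times), so sections and not spots were the replicates. Genes were filtered with filterByExpr, scaled by TMM and tested with edgeR 4.0.16 (R 4.3.3; quasi-likelihood, Benjamini-Hochberg adjusted p below 0.05) with section as a block, since both classes come from the same section; differences between times are interaction terms over all 11 sections. The 4 ranking genes were left out of the results. Other scalings, filters, rankings, class sizes, thinning to 2000 UMIs per spot, DESeq2 1.42.0 and leaving out each section were tried.

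The members and gene lists were chosen with earlier results of these data known. Named genes were the 12 called genes with the largest fold in each direction (mean of at least 20 CPM and the same sign in 4 of 4 sections), the 3 most abundant members and the called member of largest fold of each list, 14 set genes, and the 5 largest differences per direction and earlier time. Some genes chosen by this rule are not reported here. Exceptions within a list were named after their values were seen. On simulated counts of 12807 genes for the 48 h classes, 76.1% of 1.5-fold, 97.0% of 2-fold and 100% of 4-fold changes were recovered, with 4.23% false calls. In the simulated time comparisons 43.3, 31.3 and 25.4% of 1.5-fold changes were recovered against 0 h, 24 h and 36 h (13508, 13519 and 13495 genes), 73.1, 74.6 and 62.7% of 2-fold and 93.9% of 4-fold changes in each, with 6.67, 5.0 and 2.42% false calls. The simulation changed few genes, gave every gene the same spread and left the others without a class difference. In the data 66.3% of genes passed at 48 h, so the simulated rates do not carry over to them. Gene positions are from GENCODE on the mm10 build. Doublet callers do not apply to spots. The depth of the class sums is given with the results.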

Additional observations from a re-analysis of the deposited data

Results flagged for a closer look

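Between 48 h and 0 h, 24 h and 36 h the periportal minus portal-poor log2 difference differed by the test of the difference itself for 6332, 3292 and 979 genes (edgeR). The genes below had the largest such differences among those with a mean of at least 20 CPM. Their values are 48 h minus the earlier time.

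Against 0 h the most negative were Gpnmb (-6.02, adjusted p = 0.0067), Mmp12 (-4.41), Spp1 (-4.16), the smooth muscle actin gene Acta2 (-4.13) and Gm3776 (-3.99), a gene whose reads may be shared with its glutathione transferase relatives. Gpnmb and Mmp12 were near 0 at 0 h, at 0.0848 and 0.501 CPM in periportal spots, and Gm3776 was at 0.682 and 0.208 CPM in periportal and portal-poor spots, so the size of these differences depends on few UMIs. Spp1 had class differences of 3.16, 2.22, 0.74 and -1.01 at 0, 24, 36 and 48 h. The most positive were the P450 genes Cyp4a14 (3.34) and Cyp4a10 (2.65), the glutamate carrier Slc1a2 (3.05), the urinary protein gene Mup18 (2.94) and the bile acid and drug carrier Slco1b2 (2.64). Slc1a2 went from -2.90 at 0 h to 0.16 at 48 h, when it was at 0.877 and 0.769 CPM in periportal and portal-poor spots and its class difference rested on few UMIs. Without lesion-marker spots Gpnmb (-2.43, adjusted p = 0.41), Mmp12 (-2.56, adjusted p = 0.07) and Acta2 (-0.99, adjusted p = 0.15) no longer passed against 0 h, and Spp1 had -1.29, adjusted p = 0.032.

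Against 24 h the most negative were Spp1 (-3.23), the collagens Col3a1 (-2.24), Col1a1 (-2.16) and Col5a2 (-2.01) and the growth factor receptor Fgfr2 (-1.97). The most positive were Car3 (2.95), the peroxisomal thiolase Acaa1b (2.89), Gsta2 (2.63), Cyp3a11 (2.47) and Akr1c19 (2.36). Car3 went from -1.31 at 24 h to 1.64 at 48 h (adjusted p = 5.2e-08). Without lesion-marker spots Col3a1 (-0.53, adjusted p = 0.13), Col1a1 (-0.83, adjusted p = 0.59), Col5a2 (-1.01, adjusted p = 0.057), Cyp3a11 (1.28, adjusted p = 0.13) and Gsta2 (2.11, adjusted p = 0.057) no longer passed against 24 h, and Spp1 had -1.56, adjusted p = 0.024.

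Against 36 h the negative differences included Igfbp3 (-1.68), Olfml3 (-1.26), Col6a2 (-1.13) and Rasgef1b (-1.11), and the most positive were Cyp4a10 (1.73), Egr1 (1.67), Foxq1 (1.32), Pck1 (1.32) and Chka (1.24). None of these genes passed in the ranking without lesion-marker spots.

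A single section stood away from the other 3 in its log2 ratio of the classes for 3 of the 96 genes examined, where chance would mark about 1 in 20. These were Ehhadh, with 0.99 in section D, Dll4, with 1.30 in section A, and Adgrg6, with 2.34 in section A, each in the same direction as the other sections.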

How the results depend on the processing

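Sections are few (4 at 48 h, 2 at 24 h and 36 h, from 1 mouse per time as far as the methods state), so p-values do not cover variation between mice. Spots mix cells, and the depth of low genes such as Krt19 and Lgr5 limits them to large differences.

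Of the 48 h values of single genes under the alternatives, 1965 kept their direction and side of the threshold, 27 lost significance and 10 reversed; for the differences from 0 h, 24 h and 36 h 194, 204 and 184 kept both and 26, 16 and 36 lost significance. Reversed were Krt19, which did not pass at the start, under total-count scaling (-0.16), ranking by neighbouring spots (-0.45), without lesion-marker spots (-0.17) and over the left-out sections (-0.019 to 0.83), and, without lesion-marker spots, Cyp3a11 (-0.37), Scd1 (-0.28), Fasn (-0.14), mt-Co1 (-0.14), mt-Co3 (-0.11) and Spp1 (0.36). Epcam lost significance under total-count scaling, without the filter, without section C and without section D.

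Without the replicate block the 48 h count was 6673, the difference from 0 h 3570 (1822 higher, 1748 lower), from 24 h 253 (124 and 129) and from 36 h 0 (0 and 0; edgeR, with 897 at an unadjusted p of 0.05; DESeq2 with the block gave 723, 187 of them lower). Total-count scaling gave 1629 higher and 8377 lower at 48 h, 1568 and 6193 against 0 h and 325 and 575 against 36 h. Without lesion-marker spots the counts were 3585 (1835 and 1750), 1875 (1109 and 766), 675 (321 and 354) and 11 (3 and 8). Thinned spots gave 3483 (1743 and 1740), 1852 (1153 and 699), 726 (454 and 272) and 198 (159 and 39). Classes of 10% gave 643 against 36 h, 146 lower. Leaving out each section gave 7693 to 8248 (3703 to 4058, 3970 to 4190) at 48 h, 5233 to 6470 (2860 to 3549, 2373 to 3103) against 0 h, 1199 to 3459 (721 to 1977, 478 to 1576) against 24 h, lowest without 24 h A, and 233 to 1139 (161 to 792, 72 to 348) against 36 h, lowest without 36 h A. The last 2 leave 1 section, which is assumed to vary like the others. The cause of these changes was not tested.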
